A study of Mus musculus with 6 samples.

Results

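The VEGF and angiopoietin genes measured here are 5 ligands (*Vegfa*, *Vegfb*, *Vegfc*, *Angpt1* and *Angpt2*) and 5 receptors (*Kdr*, *Flt1*, *Flt4*, *Tek* and *Tie1*). They were chosen by name, through the RefSeq transcript that the array design gives for each probe, and make up 10 of the 45616 features and 14 of the 56605 probes of the arrays. *Vegfa* has 4 probes, *Vegfc* has 2 and every other gene has 1. They were followed in islet cells of *Wnt4eGFPCre; mTmG* mice at postnatal day 1 (P1). The *Wnt4eGFPCre* allele places an EGFP/Cre fusion in the *Wnt4* locus, and *mTmG* is a reporter that Cre switches from membrane tomato to membrane GFP (mGFP). The series' design describes mice with both alleles and a sort by mGFP, although a legend of the study names the lower population as lacking the *Wnt4eGFPCre* allele. Sorting by mGFP gave 3 samples of mGFP+ (Wnt4hi) cells and 3 of mGFP- (Wnt4low) cells. Islets of 3 or 4 pups were pooled for each, and mGFP marks cells in which Cre has acted, not the *Wnt4* level at the time of the sort. The islets were picked by hand, and the labels name no marker other than mGFP for the sort. For flow analyses of such mice the study shows a gate on cells with the red reporter, and neither source states a gate for endocrine cells in the array samples.

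VEGF-A, secreted by β-cells and other epithelial cells, binds the receptor tyrosine kinases encoded by *Kdr* and *Flt1* on endothelial cells and is needed for the dense capillary network of islets. VEGF-C acts mainly through the receptor encoded by *Flt4*, which is known for lymphatic growth, and VEGF-B binds the *Flt1* product. Angiopoietin 1, typically made by pericytes and other mesenchymal cells, activates the receptor encoded by *Tek* and stabilises vessels, angiopoietin 2 is a context-dependent antagonist stored in endothelial cells, and the *Tie1* product is a co-receptor of the *Tek* product.

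On the 6 arrays, from 70.5% to 79.5% of 59305 spots that are not controls were well above background, the median signal was from 10.8 to 15.6 times the local background, 0 spots were saturated, and the lowest correlation between arrays of 1 population was 0.942. All arrays lay on 1 slide. *Wnt4* itself was at a log2 intensity of 11.20, 10.53 and 10.77 on the Wnt4hi arrays (replicates 2, 3 and 4) and 9.85, 10.11 and 9.31 on the Wnt4low arrays (replicates 1, 3 and 4). The populations did not overlap and the difference was 1.08 (SE 0.27), which did not pass adjustment (limma adjusted p = 0.212). Values below are normalized log2 intensities in this order of arrays, and differences are Wnt4hi minus Wnt4low. The labels give no meaning for the replicate numbers. Each sample is a pool of pups, and nothing states that pools with the same number share a litter.

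The receptors lay lower in Wnt4hi cells, whereas the ligands were mixed, with 3 of 5 lower and 2 higher. All 5 receptor genes lay lower on every Wnt4hi array than on every Wnt4low array, with a median log2 difference of −3.88, whereas among the ligands only *Angpt1* did so and the median was −0.38. The mean difference of the 5 ligands was −0.57, a value set by *Angpt1*, since that of the other 4 was 0.15. Over all 45616 features the median was 0.072, with 28950 higher and 16666 lower in Wnt4hi cells, so that more features were higher than lower. With limma and Benjamini-Hochberg adjustment over all features, 2 of the 10 genes were called lower in Wnt4hi cells (*Kdr* and *Tek*) and 0 were called higher, where 0.403% of all features were called lower and 0.0351% higher. At the unadjusted threshold of 0.05 that the study used, 6 were lower (all receptors and *Angpt1*) and 0 higher, against 5.53% and 5.02% of all features. The arrays of both populations did not overlap for 6 genes lower in Wnt4hi cells and for 1 higher, *Vegfa*, against 6.44% and 9.56% of all features (16% in either direction). In bulk samples of sorted cells, fewer cells of a type and less RNA per cell cannot be told apart.

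**Figure D1:**
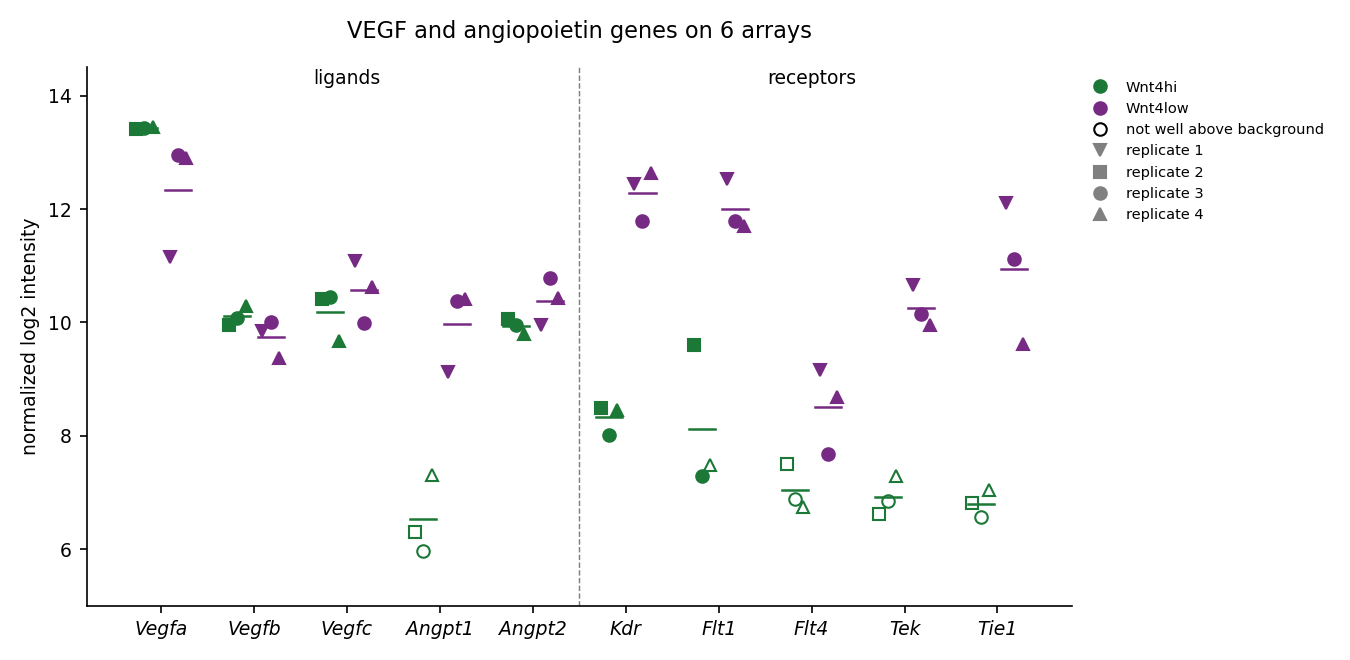
Normalized log2 intensity (vertical axis) of each of the 10 genes on the 3 Wnt4hi arrays (green) and the 3 Wnt4low arrays (purple), where marker shapes are replicate numbers, lines are means, and open markers are spots that are not well above background. *Vegfa* is the only gene whose Wnt4hi arrays (13.41 to 13.45) all lie above the Wnt4low arrays (11.16 to 12.95), whereas the Wnt4hi arrays of all 5 receptors and of *Angpt1* lie below.

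*Kdr*, which encodes the main signalling receptor for VEGF-A, was at 8.49, 8.02 and 8.46 in Wnt4hi cells and at 12.44, 11.79 and 12.63 in Wnt4low cells. The 3 values of each population lay close together, 8.32 ± 0.27 against 12.29 ± 0.44 (SD, n = 3 arrays each), with a wide gap between the populations. *Kdr* was 15.6-fold lower in Wnt4hi cells (95% confidence interval 9.99 to 24.3), a log2 difference of −3.96 (SE 0.26, limma adjusted p = 0.0183). It was well above background on all 6 arrays, with raw signals of 260 to 322 over a background of 33 to 37 in Wnt4hi cells, so that a low signal of *Kdr* was measured there, not its absence.

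*Flt1* encodes a receptor that binds VEGF-A and VEGF-B tightly and also exists as a soluble decoy. Its values were 9.59, 7.28 and 7.49 in Wnt4hi cells and 12.53, 11.78 and 11.70 in Wnt4low cells. Wnt4hi replicate 2 stood above the other Wnt4hi arrays but still below every Wnt4low array, and *Flt1* was well above background on 2 of the 3 Wnt4hi arrays. The log2 difference was −3.88 (SE 0.64, limma adjusted p = 0.0839, unadjusted p = 0.000843) and did not pass adjustment. Without Wnt4hi replicate 2 it was −4.62.

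*Flt4*, the receptor for VEGF-C, was at 7.50, 6.89 and 6.74 in Wnt4hi cells, where it was well above background on 0 of 3 arrays, and at 9.16, 7.68 and 8.68 in Wnt4low cells. The highest Wnt4hi array came close to the lowest Wnt4low array, but the populations did not overlap. The signal was at least 2.20-fold lower in Wnt4hi cells, and the measured difference of −1.46 (SE 0.41) did not pass adjustment (limma adjusted p = 0.265, unadjusted p = 0.0118). A fold given as "at least" sets the Wnt4low mean against the lowest signal that was well above background on each Wnt4hi array. Where the spot's own value was higher, that value was used. Such a fold allows for spots near background but not for the spread between arrays. The confidence interval of the measured fold can therefore reach below it, and for *Flt4* ran from 1.37 to 5.55.

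*Tek* encodes the angiopoietin receptor. It was at 6.62, 6.86 and 7.29 in Wnt4hi cells (well above background on 0 of 3 arrays) and at 10.66, 10.16 and 9.95 in Wnt4low cells. The arrays of each population lay close together and the populations were far apart. *Tek* was at least 7.59-fold lower in Wnt4hi cells, with a measured difference of −3.33 (SE 0.26, limma adjusted p = 0.0194). The confidence interval of its measured fold ran from 6.54 to 15.5 and so reached below that bound. *Tie1*, its co-receptor, was at 6.81, 6.56 and 7.03 in Wnt4hi cells (again 0 of 3 arrays well above background) and at 12.10, 11.13 and 9.61 in Wnt4low cells. Its Wnt4low arrays spread widely (SD 1.25, n = 3) while its Wnt4hi arrays did not (SD 0.23, n = 3). *Tie1* was at least 12.2-fold lower in Wnt4hi cells, with a measured difference of −4.14 (SE 0.60), which did not pass adjustment (limma adjusted p = 0.0663). With the spread between arrays, the confidence interval of the measured *Tie1* fold ran from 6.38 to 49.0.

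With the 3 receptors that were not well above background in Wnt4hi cells set to their bounds, the median of the receptors was −3.61. The adjusted calls of *Kdr* and *Tek* rested on all 6 arrays. When any 1 array was left out, neither was called, with adjusted p from 0.0501 to 0.116 for *Kdr* and from 0.0544 to 0.125 for *Tek*, while the difference of *Kdr* stayed between −4.21 and −3.79 and that of *Tek* between −3.52 and −3.13.

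**Figure D2:**
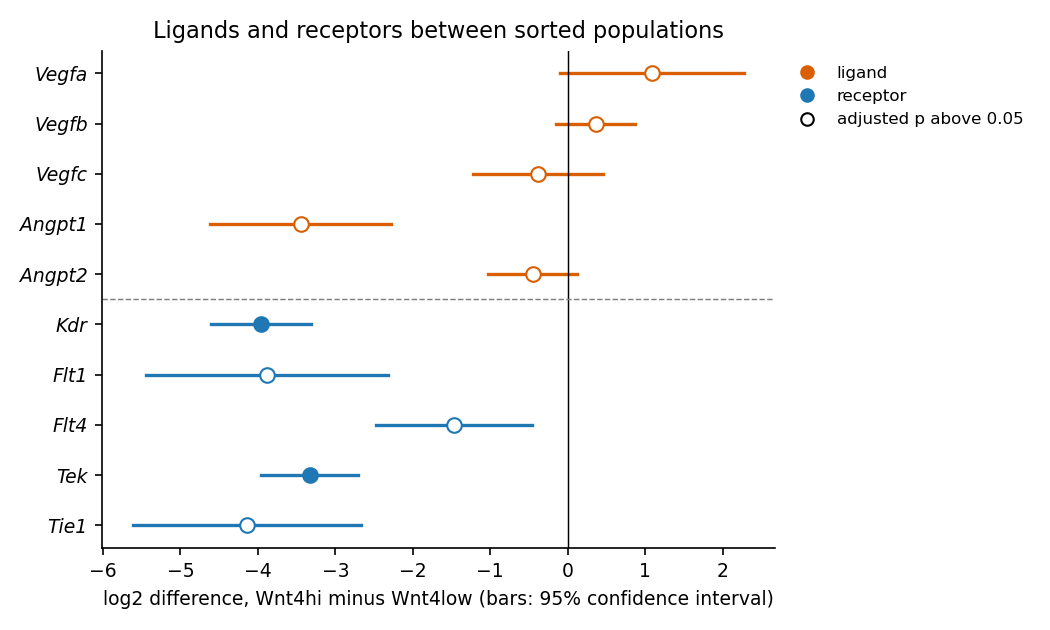
Log2 difference between Wnt4hi and Wnt4low cells (horizontal axis) for each ligand (orange) and receptor (blue), where points are limma estimates from 3 arrays against 3, bars are 95% confidence intervals and filled points passed the adjusted threshold. The intervals of all receptors and of *Angpt1* lie below 0, those of the other ligands include 0, and *Kdr* and *Tek* are the filled points.

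*Angpt1*, the ligand that activates the *Tek* product, behaved unlike the other ligands. It was at 6.30, 5.96 and 7.30 in Wnt4hi cells (well above background on 0 of 3 arrays) and at 9.13, 10.37 and 10.41 in Wnt4low cells. Raw signals were 45.0 to 108.0 in Wnt4hi cells over a background of 33.0 to 37.0, against 615.5 to 1287.5 in Wnt4low cells. The signal was at least 6.23-fold lower in Wnt4hi cells, and the measured difference of −3.45 (SE 0.48) had an unadjusted p of 0.000334 but did not pass adjustment (limma adjusted p = 0.0616). With the spread between arrays, the confidence interval of the measured *Angpt1* fold ran from 4.85 to 24.6. *Angpt2*, which counteracts *Angpt1* in many settings, was at 10.06, 9.95 and 9.79 in Wnt4hi cells and at 9.95, 10.78 and 10.42 in Wnt4low cells. The populations overlapped, and the difference of −0.45 had a 95% confidence interval from −1.02 to 0.12 (limma adjusted p = 0.602), which leaves more room for a lower than for a higher level in Wnt4hi cells. Without Wnt4low replicate 1 the difference was −0.67, with an unadjusted p of 0.0148 and a limma adjusted p of 0.347, and without Wnt4low replicate 3 it was −0.25, with an unadjusted p of 0.283.

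*Vegfa*, the ligand through which β-cells recruit capillaries, was at 13.41, 13.42 and 13.45 in Wnt4hi cells and at 11.16, 12.95 and 12.90 in Wnt4low cells. The 3 Wnt4hi arrays were nearly equal (SD 0.022, n = 3) and lay above all Wnt4low arrays, of which replicate 1 was far lower than the others (SD 1.02, n = 3). The difference of 1.09 (SE 0.49) corresponds to 2.13-fold, with a 95% confidence interval from 0.935-fold to 4.86-fold, and was not called (limma adjusted p = 0.520, unadjusted p = 0.0659). Its size depended on Wnt4low replicate 1. Without that array the difference was 0.50, with an unadjusted p of 0.0136 and a limma adjusted p of 0.338.

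The other probes of *Vegfa* did not all follow the brightest one, A_52_P638895. Probe A_51_P482552 was at 12.50, 12.02 and 12.02 in Wnt4hi cells and at 10.26, 11.27 and 10.87 in Wnt4low cells, again without overlap, with a difference of 1.38 (SE 0.29, limma adjusted p = 0.144). Probe A_52_P249424, designed on another transcript of the gene, differed by 0.87 (limma adjusted p = 0.400) with overlapping arrays. Probe A_55_P2741794, the dimmest, went the other way with overlapping arrays, at −0.69 (SE 0.45, limma adjusted p = 0.682). A higher *Vegfa* signal in Wnt4hi cells was therefore seen with 3 of 4 probes and called with 0.

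*Vegfb*, whose product binds only the *Flt1* product among the VEGF receptor kinases, was at 9.95, 10.07 and 10.29 in Wnt4hi cells and at 9.85, 10.01 and 9.37 in Wnt4low cells. The difference of 0.36 (95% confidence interval −0.15 to 0.87) was within the spread of overlapping arrays (limma adjusted p = 0.653), and without Wnt4low replicate 4 it was 0.17. *Vegfc*, the ligand of the *Flt4* product, was at 10.42, 10.44 and 9.68 in Wnt4hi cells and at 11.08, 9.99 and 10.62 in Wnt4low cells. The populations overlapped and the difference of −0.38 (95% confidence interval −1.22 to 0.45) was not called (limma adjusted p = 0.793), and its other probe differed by −0.40 (limma adjusted p = 0.836). Single arrays moved this difference, to −0.13 without Wnt4hi replicate 4 or without Wnt4low replicate 1 and to −0.67 without Wnt4low replicate 3.

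**Figure D3:**
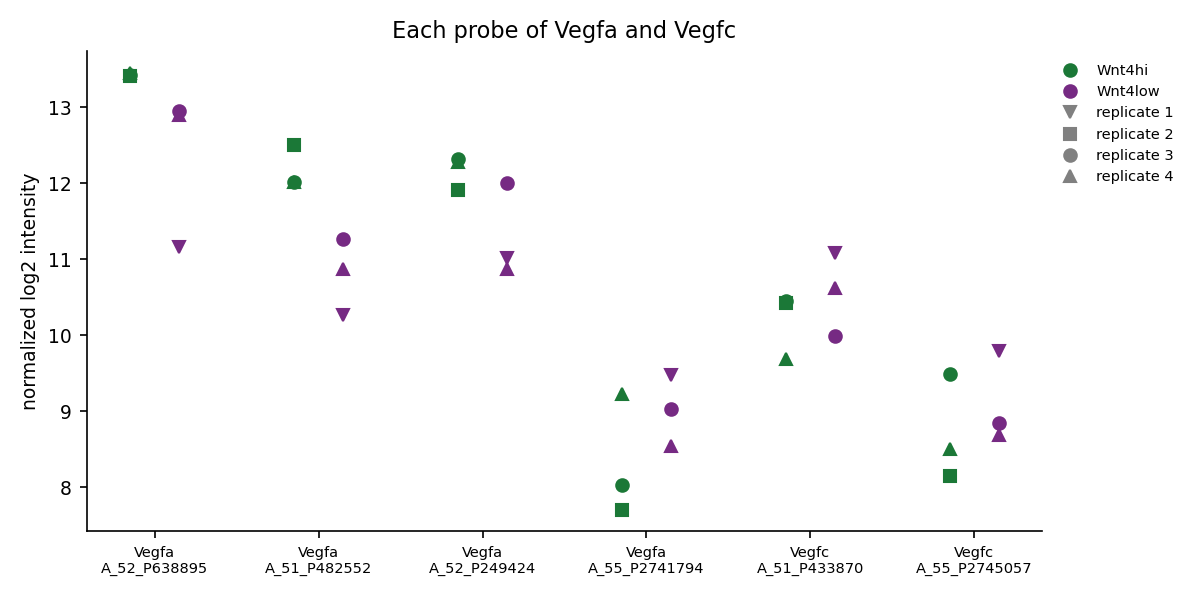
Normalized log2 intensity (vertical axis) of each of the 4 probes of *Vegfa* and the 2 probes of *Vegfc* on the 3 Wnt4hi (green) and 3 Wnt4low (purple) arrays, where marker shapes are replicate numbers. For probes A_52_P638895 and A_51_P482552 of *Vegfa* all Wnt4hi arrays lie above all Wnt4low arrays, for A_55_P2741794 the means run the other way, and both probes of *Vegfc* overlap.

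The values of *Vegfa* and *Kdr*, the main ligand and receptor pair of the VEGF pathway, were also set against each other by array, each centred on its mean over the 6 arrays. *Vegfa* minus *Kdr* was 2.34, 2.83 and 2.41 on the Wnt4hi arrays and −3.86, −1.42 and −2.31 on the Wnt4low arrays, a difference of 5.05 between the populations. This restates the differences of both genes given above (1.09 and −3.96) by array and is no further evidence of either. The most extreme value was that of Wnt4low replicate 1, and the pair does not stand for all ligands, since *Angpt1* lay lower together with the receptors.

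The receptors moved with the markers of endothelial cells. All 18 genes of a list of endothelial markers, none of them a receptor above, were lower in Wnt4hi cells, with a median difference of −2.42 (range −4.49 to −0.66), of which 6 were called after adjustment and 17 at the unadjusted threshold. Over all features, 0.403% and 5.53% were lower at these thresholds. With 1 array left out, 0 or 1 of the 18 were called and 14 to 17 passed the unadjusted threshold, all 18 remaining lower. The summed linear level of the list ran from 9492 to 13445 on the Wnt4hi arrays and from 47393 to 106449 on the Wnt4low arrays, and that of the 5 receptors from 744 to 1525 and from 10659 to 18022. Probes of endothelial markers nonetheless gave signal in Wnt4hi cells. Of the 18 markers, 15 were well above background on all 3 Wnt4hi arrays and 1 (*S1pr1*) on none. On single Wnt4hi arrays 70.5% to 79.5% of all spots that are not controls were well above background. The count by itself therefore does not set the endothelial markers apart. The defining genes *Pecam1* (−3.04, SE 0.33, limma adjusted p = 0.0361) and *Cdh5* (−3.58, SE 0.30, limma adjusted p = 0.0242) were well above background on all 6 arrays, and so were the 3 brightest markers *Egfl7* (−2.15), *Cd34* (−2.82) and *Plvap* (−4.10). The part of endothelial cells in the difference of the receptors was not tested.

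With each gene set relative to its mean over the 6 arrays, the receptors had medians of −1.81, −2.29 and −1.84 on the Wnt4hi arrays and 2.13, 1.57 and 1.36 on the Wnt4low arrays. That of the endothelial markers was −0.93, −1.31 and −1.41 and then 2.01, 0.62 and 0.96. Both were highest on Wnt4low replicate 1, and the endothelial markers were least low on Wnt4hi replicate 2, the array on which *Flt1* was also higher than on the other Wnt4hi arrays. Wnt4low replicate 1, where *Vegfa* was lowest, had the lowest medians of the β-cell markers (−1.10, against 0.10 and −0.69 on the other Wnt4low arrays) and of the α-cell markers (−2.51, against −0.11 and −0.08). The part of this array's cell composition in the *Vegfa* value was not tested.

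**Figure D4:**
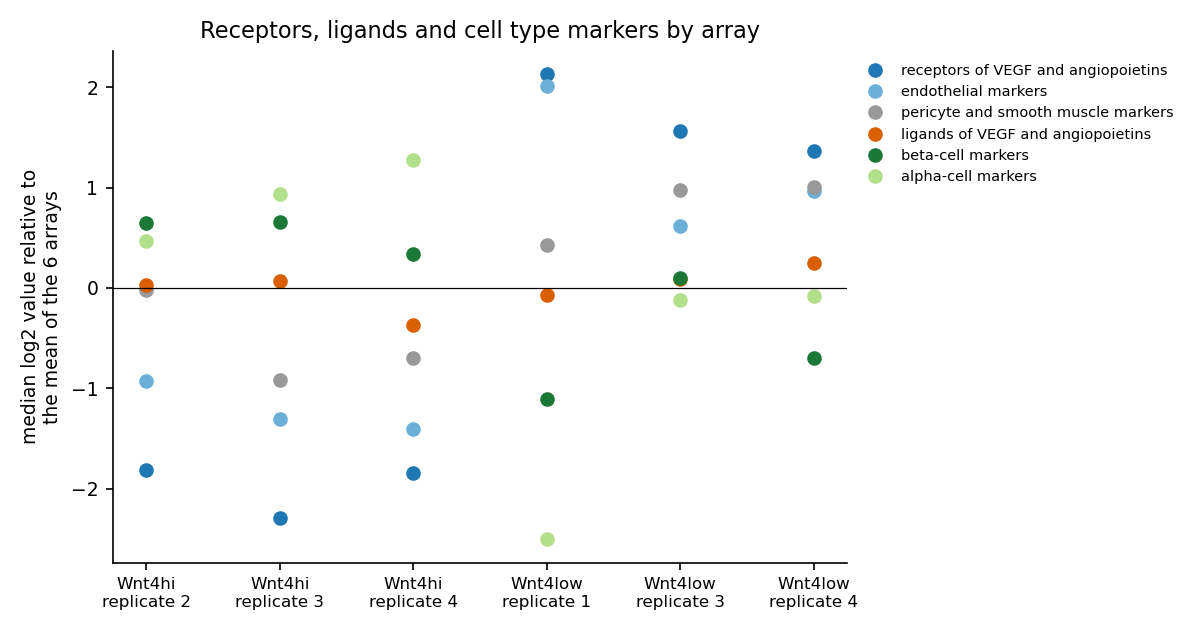
Median log2 value over the genes of a list, each gene relative to its mean over the 6 arrays (vertical axis), for each array (horizontal axis), with colours for the receptors, the ligands and 4 lists of cell type markers. Receptors and endothelial markers lie below 0 on all Wnt4hi arrays and above 0 on all Wnt4low arrays, while the ligands stay between −0.37 and 0.25 on all 6.

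Markers of other cell types moved as well. Of all features, 5.53% were lower and 5.02% higher at the unadjusted threshold. Of 11 pericyte and smooth muscle markers, cells that are a usual source of *Angpt1*, 10 were lower in Wnt4hi cells (median −1.55) and 7 passed the unadjusted threshold, 0 the adjusted one. Their summed level ran from 32402 to 43938 on the Wnt4hi arrays and from 61520 to 88113 on the Wnt4low arrays. Wnt4hi replicate 2, with a centred median of −0.02 against −0.91 and −0.69, stood nearer to the Wnt4low arrays (0.43 to 1.01) than the other Wnt4hi arrays did. The brightest of these were *Acta2* (−0.21), *Rgs5* (−1.72) and *Pdgfrb* (−1.86), and all 11 were well above background on all 6 arrays. All 6 fibroblast markers were lower too (median −1.18, 4 at the unadjusted threshold). Wnt4hi replicate 2 stood apart here as well, with a centred median of 0.46 against −1.41 and −0.96 on the other Wnt4hi arrays and 0.50 to 0.76 on the Wnt4low arrays. In contrast, 11 of 12 β-cell markers were higher (median 1.16, 7 at the unadjusted threshold), and all 12 had signals well above background on each array. Of the 5 lymphatic markers, listed because *Flt4* marks lymphatic vessels, 4 were lower (median −0.24, or −0.12 with *Mmrn1* at its bound), with 1 lower and 1 higher at the unadjusted threshold. *Pdpn* was at −1.94, *Reln* at −0.04 and *Lyve1* at −0.24, while *Prox1*, which endocrine cells also express, was higher at 0.93. *Lyve1* was well above background on 1 of 3 Wnt4hi arrays and *Mmrn1* on 0, and neither was so on all Wnt4low arrays. The bound of *Mmrn1*, 1.09-fold, and the median of −0.12 therefore rest partly on spots near background. The part of pericytes in the *Angpt1* difference was not tested.

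The promoters of the genes are shown because the receptors moved together and *Vegfa* did not. RefSeq windows of the assembly GRCm38.p6, each 250 bases long and ending just before an annotated start of transcription, were held for 8 of the 10 genes. Those of *Tek*, *Kdr* and *Flt1* lie inside the span annotated for the gene, before an internal start, so that their counts are not those of the most upstream promoter. Those of *Tie1*, a receptor with many matches, *Flt4*, a receptor with few, and *Vegfa* are printed with each GGAA, or TTCC on the other strand, in capitals, the core of the motif that ETS factors bind, a family well known in endothelial genes.
Tie1 (chr4:118489850-118490099, minus strand): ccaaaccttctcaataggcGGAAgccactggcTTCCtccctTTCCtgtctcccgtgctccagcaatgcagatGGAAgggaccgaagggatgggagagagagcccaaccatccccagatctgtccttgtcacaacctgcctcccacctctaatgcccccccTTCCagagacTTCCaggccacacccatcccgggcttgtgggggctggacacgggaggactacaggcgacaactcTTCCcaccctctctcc
Flt4 (chr11:49609429-49609678, plus strand): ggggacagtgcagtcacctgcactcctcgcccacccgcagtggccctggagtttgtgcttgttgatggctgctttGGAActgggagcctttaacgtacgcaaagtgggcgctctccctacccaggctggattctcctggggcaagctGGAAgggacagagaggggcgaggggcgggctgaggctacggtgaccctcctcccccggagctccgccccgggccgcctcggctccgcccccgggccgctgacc
Vegfa (chr17:46032378-46032627, minus strand): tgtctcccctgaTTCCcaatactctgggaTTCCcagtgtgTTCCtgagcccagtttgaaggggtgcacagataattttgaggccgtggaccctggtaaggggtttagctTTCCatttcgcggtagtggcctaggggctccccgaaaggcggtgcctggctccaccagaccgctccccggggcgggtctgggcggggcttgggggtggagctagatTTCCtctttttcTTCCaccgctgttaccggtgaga

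The *Tie1* window held 7 matches to GGAA, a number reached by 3.82% of 32851 windows of the same length, and that of *Vegfa* held 6, reached by 8.69%. *Kdr* and *Flt1* held 4 each (33.4%), *Tek* and *Flt4* 2 each (76.8%), and *Vegfb* and *Vegfc* 1 each (93.4%). The counts of receptors and ligands overlapped. The core of the hypoxia response element, ACGTG or CACGT, was found in 0 of these windows, against 16.6% of all windows, and 1 time in a window before a start inside the *Vegfa* gene. The GC box, GGGCGG or CCGCCC, was found in all of these windows other than those of *Tek* and *Tie1*, from 2 matches in *Kdr* to 4 in *Vegfb*, against 32.7% of all windows with at least 1. No match overlapped another.

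Of 10 other ligands, co-receptors and regulators of the same receptors, 7 were lower in Wnt4hi cells and 3 higher (median −0.11). After adjustment 1 was called, and at the unadjusted threshold 3 were lower and 1 higher, where 5.53% and 5.02% of all features were. *Ptprb*, the endothelial phosphatase that restrains the *Tek* and *Kdr* products, was at 6.70, 6.91 and 8.28 in Wnt4hi cells (well above background on 1 of 3 arrays) and at 12.55, 11.37 and 11.81 in Wnt4low cells, a difference of −4.61 (SE 0.50, limma adjusted p = 0.0364, or 0.0645 to 0.140 with 1 array left out). The co-receptor *Nrp1* was at 12.07, 11.96 and 11.50 in Wnt4hi cells and at 14.91, 13.26 and 13.56 in Wnt4low cells, without overlap, and its difference of −2.06 did not pass adjustment (limma adjusted p = 0.154). Its other probes differed by −2.79 and −1.16. For *Nrp2* the probes gave different values. The brightest, whose values of 16.13 to 16.55 lie near the top of the normalized scale (17.05), where differences are hard to measure, differed by −0.04, while another differed by −3.55 (limma adjusted p = 0.0774 among all probes) and the last by −0.23. Among ligands, *Vegfd*, the relative of *Vegfc*, differed by −1.20 (limma adjusted p = 0.281), *Pgf* by 0.07 and *Angpt4* by 0.32. The genes for the VEGF-C processing factors *Ccbe1* (−0.07) and *Adamts3* (−0.16) and for the endocytic adaptors *Epn1* (0.24) and *Epn2* (−0.27) were not called. Another probe of *Ccbe1* differed by −1.41 (limma adjusted p = 0.0724 among all probes, well above background on 0 of 3 Wnt4hi arrays) and another of *Epn2* by −0.89 (limma adjusted p = 0.161).

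**Figure D5:**
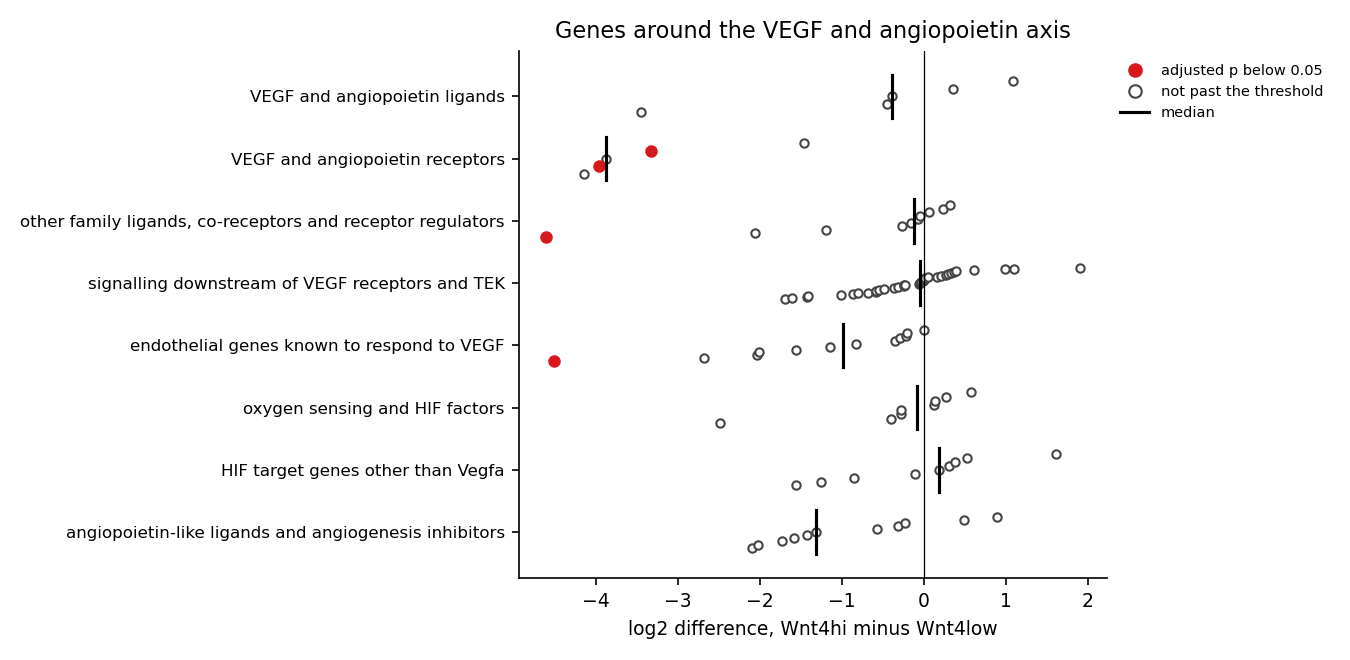
Log2 difference between Wnt4hi and Wnt4low cells (horizontal axis) for the genes of each list (rows), where points are genes, red points passed the adjusted threshold and bars are medians. The receptors have the most negative median (−3.88), and the signalling genes downstream of them lie around a median of −0.05.

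Of 36 kinases, adaptors and effectors through which these receptors signal, 21 were lower and 15 higher in Wnt4hi cells (median −0.05), 0 were called with limma after adjustment, and 7 lower and 3 higher passed the unadjusted threshold, where 5.53% and 5.02% of all features did. Most of these genes act in many cell types. An exception is *Nos3*, the gene of endothelial nitric oxide synthase, at −1.61 (limma adjusted p = 0.360, unadjusted p = 0.0243). It was well above background on 0 of 3 Wnt4hi arrays and 2 of 3 Wnt4low arrays. Among genes with a signal well above background on every array of the population where they were higher, the largest differences were those of *Grb7*, an adaptor of the *Tek* product, at 1.91 (limma adjusted p = 0.0862), of the small heat shock gene *Hspb1* at −1.70, and of the adaptors *Pxn* and *Gab1* at −1.42 each. *Grb7* was higher on every Wnt4hi array (11.43, 11.80 and 11.58) than on every Wnt4low array (9.03, 10.24 and 9.81). Of 12 genes known to respond to VEGF in endothelial cells, 11 were lower (median −0.99), 6 at the unadjusted threshold and 1 after adjustment. *Esm1*, which marks tip cells of growing vessels, was at 9.24, 7.78 and 8.05 in Wnt4hi cells and at 13.30, 11.96 and 13.35 in Wnt4low cells, a difference of −4.51 (SE 0.53, limma adjusted p = 0.0434, or 0.0544 to 0.147 with 1 array left out).

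Genes around oxygen sensing, which drives *Vegfa* transcription, showed no common direction. Of all features, 5.53% were lower and 5.02% higher at the unadjusted threshold. Of 8 oxygen sensors and HIF factors, 4 were lower and 4 higher (median −0.08) and 0 were called after adjustment with limma, 1 at the unadjusted threshold. That gene was *Epas1*, a HIF factor abundant in endothelial cells, at −2.49 (limma adjusted p = 0.0570), while *Hif1a* (−0.40), *Arnt* (−0.28) and *Hif1an* (0.57) did not pass either threshold. Of 9 HIF targets other than *Vegfa*, 4 were lower and 5 higher (median 0.18), 0 after adjustment with limma and 2 lower and 1 higher at the unadjusted threshold. *Ankrd37* was at 1.61, *Ldha* at −1.56, the glucose transporter *Slc2a1* at −1.26 and *Adm* at −0.85. Of 11 angiopoietin-like ligands and angiogenesis inhibitors, 9 were lower (median −1.31), 0 after adjustment with limma and 5 at the unadjusted threshold, among them *Thbs1* (−2.09), *Thbs2* (−2.03), *Adamts1* (−1.73) and *Timp3* (−1.58). Other probes of *Thbs1* and *Timp3* differed by −2.92 and −2.06 (limma adjusted p = 0.0531 and 0.0400 among all probes), and another probe of *Hif1an* by −0.29, opposite to the one above.

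A comparison was made with 17657 genes that have a symbol and were well above background on every array of 1 population or both. Those closest to *Kdr* in pattern over the 6 arrays were *Cdh5*, *Stmn2*, *Ly6c1*, *Col15a1* and *Ly6c2*, whose centred log2 values differed from those of *Kdr* by 0.19 to 0.26 on average, against a median of 2.02 for all genes compared. Those closest to *Vegfa* were *Mtcl1*, *Tmem65*, *Ptgr2*, *Ss18l2* and *Il1r1* (0.077 to 0.13, against a median of 0.64). These are descriptions over 6 arrays of 1 comparison. The list for *Vegfa* consists of genes that, like it, were low on Wnt4low replicate 1, and their own differences of 0.93 to 1.25 were not called.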

How the data were processed

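Cy5-labelled cDNA from sorted P1 islet cells was read on 1-colour Agilent mouse arrays, 3 per population. For each array the authors deposited the output of the scanner, which gives a median intensity per spot and a local background without normalization, and a table of normalized log2 values, which served as an alternative only. The file headers name Feature Extraction 12.0.1.1 and the submitters' processing notes 9.1. In the deposited log2 table the column medians were about 8.91, its centring and probe averaging are not stated in the sources used here, and the column of Wnt4hi replicate 2 correlated best with the scanner values of Wnt4hi replicate 3 (r = 0.889, against 0.870 with its own array), so that the origin of that column is uncertain.

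As in the methods, normexp (offset 50) and quantile normalization were applied to these intensities with limma 3.58.1 (R 4.3.3). Control spots were removed after the background correction and spots marked as outliers were left out. RefSeq names of 32994 of 35886 probe rows matched a table of RefSeq genes (GRCm38.p6), which served for names alone since the array design predates it. Where a symbol had several probes (7899 symbols), the one with the highest mean was taken. Wnt4hi and Wnt4low were compared over 45616 features (lmFit, eBayes, no covariates) with Benjamini-Hochberg adjustment over all of them. p-values measure the spread between these pools, and 6 arrays set the limit of precision. The calculation was tested on simulated data.

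The genes, lists and tests were chosen with earlier results of these data known. The named genes are all 10 ligands and receptors, all genes of the list of other family members, in the other pathway lists those called or otherwise the 4 with the largest difference that were well above background in the higher population, at most the 3 brightest of a marker list, and the 5 genes closest in pattern to *Vegfa* and to *Kdr* by mean absolute difference of centred log2 values. *Pecam1*, *Cdh5*, *S1pr1*, *Lyve1*, *Mmrn1* and *Nos3* were named after their values were seen, as were other probes of genes in the pathway lists. The alternatives changed the background correction, normalization, dim probes, outlier spots, probe choice, variance model, source of the values and replicate block, and left out each array. Replicate numbers 3 and 4 occur in both populations, with pools of 4 pups for number 3 and of 3 pups for number 4 in each. Deviations from the population means correlated at −0.033 and 0.156 between arrays of the same number. So few arrays can neither show nor exclude that they are pairs, and the replicate number was used as an alternative only.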

Additional observations from a re-analysis of the deposited data

How the results depend on the processing

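All 10 genes kept their direction in 19 alternatives each (18 for *Kdr*), apart from *Vegfa* when its probe A_55_P2741794 was taken, at −0.69, in an alternative chosen after seeing the data. *Angpt1* and the 5 receptors passed the unadjusted threshold in every one of these, *Vegfa* in 4, *Angpt2* in 2, *Vegfb* in 1 and *Vegfc* in 0 of 19. The adjusted threshold was passed by *Kdr* in 11 of 18, *Tek* in 12, *Tie1* in 6, *Angpt1* in 5 and *Flt1* in 2 of 19, and by *Flt4* and the other ligands in 0. In place of 2 of the 10 genes, 5 were called with dim probes removed (505 features or 1.58% of all called, in place of 200 or 0.438%), 4 of 9 with the authors' values, where *Kdr* was not analysed here (406 or 1.11% of all), and 4 with features that have a symbol only, also chosen afterwards (291 or 1.27% of all). With any 1 array left out, the number called ranged from 0 to 0 and at most 2 features were called in all. With the replicate number as a replicate block, 0 of the 10 genes and 0 features were called, the adjusted p of *Kdr*, *Tek*, *Ptprb* and *Esm1* was 0.0580, 0 endothelial markers were called, 7 of the 10 genes passed the unadjusted threshold, and the medians were −3.57 for the receptors and −0.25 for the ligands. The median of the receptors was −4.28 with the processed signal and −3.18 with the authors' values, where it covers 4 receptors without *Kdr* (−3.61 for these in the values as reported), and ranged from −4.05 to −3.46 with 1 array left out, whereas that of the ligands ranged from −0.50 to −0.13. The cause of these shifts was not tested. Spots near background limit *Angpt1*, *Flt4*, *Tek* and *Tie1* to bounds in Wnt4hi cells. They also leave the size of the differences of *Flt1*, *Ptprb* and the dimmer probe of *Ccbe1* uncertain, for which no bound is given.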

Other observations

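Markers of further cell types were read on the same arrays, where 5.53% of all features were lower and 5.02% higher at the unadjusted threshold. Of 8 macrophage and leukocyte markers, 7 were lower in Wnt4hi cells (median −0.58, 4 at the unadjusted threshold). All 5 α-cell markers were higher (median 2.04, 2 at the unadjusted threshold), both δ-cell markers were lower (median −1.15, 2 at the unadjusted threshold), and 5 of 6 acinar (median −1.29) and 3 of 5 duct markers (median −0.48) were lower, 1 of each at the unadjusted threshold. The acinar markers were raised on Wnt4low replicates 3 and 4 (centred medians 1.81 and 0.90), while Wnt4low replicate 1 (−0.78) was as low as the Wnt4hi arrays (−0.79 to −0.31), and the duct markers were raised on Wnt4low replicate 1 (0.65). None of these passed adjustment with limma.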
